A study of Mus musculus with 9 samples.

Results

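The genes described here encode carriers that move amino acids and amino acid-like neurotransmitters across membranes, and their transcripts were measured in newborn mice with 2, 1 or 0 wild-type alleles of Prdm16, in uncultured cells dissected from the ventricular zone of the brain. Members were set by gene symbol, as the genes of the Slc1, Slc3, Slc6, Slc7, Slc32, Slc36, Slc38 and Slc43 families with a probe set of 1 gene symbol. Slc1a2, Slc1a3, Slc6a8 and Slc7a11 were left out by name, and the rule was chosen with earlier results of these data known. This gave 61 of the 19938 genes tested. Of these, Slc6a19os and Slc7a6os carry a carrier's name only because they lie on the opposite strand of one, and they are counted among the 61 members, as the rule sets, but described apart from the 59 carriers. All mice were newborns of the C57BL/Ka strain and untreated. The genotypes were Prdm16+/+ (called WT), Prdm16LacZ/+ (called HET) and Prdm16LacZ/LacZ (called KO), with 3 Affymetrix Mouse Gene ST 1.0 arrays each. The sources used here do not say how the LacZ allele was built. No label ties arrays to animals. Xist, which only female cells transcribe, was at 10.04 or above on 1 WT, 1 HET and 2 KO arrays and at 4.42 to 4.99 on the others, so the arrays of each genotype did not all come from the same animal and the sexes were not balanced. Whether every array is a separate animal is not known, and the p-values cover the spread between these arrays.

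Carriers of the Slc6 family use the sodium and chloride gradients to take transmitters such as GABA, glycine and the monoamines, and osmolytes such as taurine, back into cells, while Slc32a1 loads GABA and glycine into synaptic vesicles. Slc1 carriers take up glutamate or exchange small neutral amino acids, and Slc38 carriers move glutamine and other neutral amino acids, which ties neurons and glia together in the glutamine cycle. Slc7 light chains work as exchangers bound to a heavy chain, Slc3a1 or Slc3a2, whereas the cationic carriers of the same family bring in arginine and lysine alone. In the ventricular zone, progenitors take up amino acids for growth, and neighbouring glia and vessels express many of the same carriers.

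Values are the authors' RMA values on the log2 scale, on which a difference of 1 is a doubling. Over all probe sets, the median of an array was 5.80 to 5.92 and its lower quartile 4.53 to 4.68. Carrier means over the 9 arrays ran from 3.27 to 10.59, and 6 carriers (Slc6a5, Slc6a14, Slc7a12, Slc7a15, Slc38a4 and Slc38a11) were under the lower quartile on all arrays, where background may make up a value. Levels of different probe sets are not comparable with each other. Prdm16 itself lay at 7.62, 7.57 and 7.23 in WT, 6.995, 7.34 and 6.998 in HET, and 5.69, 6.41 and 6.17 in KO. All 3 KO arrays lay below every other array, and the KO against WT difference was -1.38 (SE 0.18, adjusted p = 0.010 by limma). The radial glia markers fixed for the tissue label (10 of 10 measured) had mean levels of 8.42 to 8.52 (WT), 8.24 to 8.48 (HET) and 8.31 to 8.54 (KO), and none of them passed the test in KO against WT.

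No carrier among the members passed the test between genotypes. Slc7a11, left out by name, passed in KO against WT and is given below with the amino acid response genes. In KO against WT, 0 of 61 members passed at an adjusted p under 0.05 (limma over all 19938 genes, Benjamini-Hochberg), where 0.451% of all genes did, a share that would amount to less than 1 carrier. The carriers with the smallest p were the taurine carrier Slc6a6, the arginine carrier Slc7a2, the glycine carrier Slc6a9 and the glutamine carrier Slc38a3, with adjusted p-values of 0.136, 0.152, 0.155 and 0.173 in that order. Slc6a6 and Slc6a9 lay higher in KO, and Slc7a2 and Slc38a3 lower. In RNA from dissected tissue, fewer cells of a type and less RNA per cell cannot be told apart. At an unadjusted p under 0.05 there were 8 members (7 carriers and Slc6a19os), or 13.1% of the 61, against 6.15% of all genes. Of them 4 lay higher and 4, with Slc6a19os, lower, each 6.56% of the members, where 3.28% of all genes lay higher and 2.87% lower. WT and KO arrays did not overlap for 7 members (6 carriers and Slc6a19os), or 11.5%, against 9.98% of all genes.

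The members as a group had no common direction. In KO against WT, 32 of 61 lay above 0 and 29 below (32 and 27 of the 59 carriers), with a median log2 difference of 0.01, the same as the median of 0.01 over all genes. The median size of the difference, whatever its sign, was 0.09 for members and 0.07 for all genes. The members spanned -0.68 to 0.54, while all genes spanned -2.63 to 2.25. In HET against WT the members' median was 0.01, against 0.00 over all genes. In KO against HET it was -0.03, with 26 above 0 and 35 below, against 0.00 over all genes. In each of these comparisons 0 members were called.

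**Figure D1:**
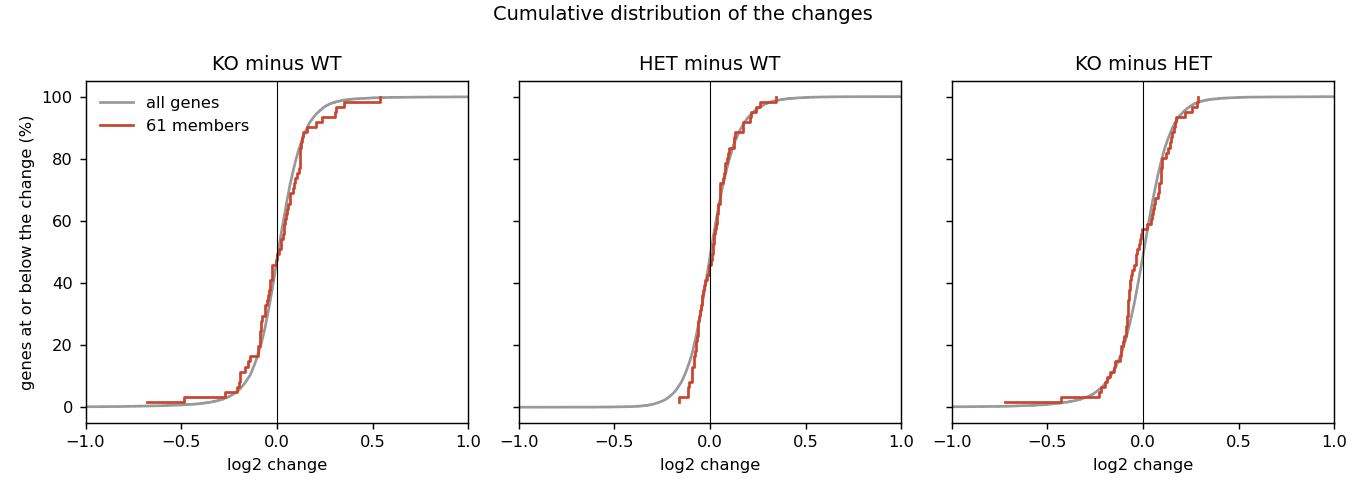
Cumulative share of genes (y axis, percent) at or below each log2 change (x axis) for the 61 members (red) and all 19938 genes (grey), in KO minus WT, HET minus WT and KO minus HET. In KO minus WT the curves cross 0 close together, and the members end at -0.68 and 0.54. In KO minus HET, 35 of the 61 members lay below 0, against 9756 of the 19938 genes. The x axis is limited to changes between -1 and 1.

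The arrays were precise enough to bound most of these differences. The median SE of a member's difference was 0.11 on the log2 scale (range 0.070 to 0.17), against 0.10 over all genes. In KO against WT the 95% interval lay wholly between -0.5 and 0.5 (1.41-fold) for 52 of 61 members (85.2%), against 89.0% of all genes. It lay between -1 and 1, a 2-fold change, for 60 of 61 (98.4%), against 99.2% of all genes. Slc7a2 was the 1 carrier whose interval reached past a 2-fold change, to -1.02, as named after its values were seen.

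**Figure D2:**
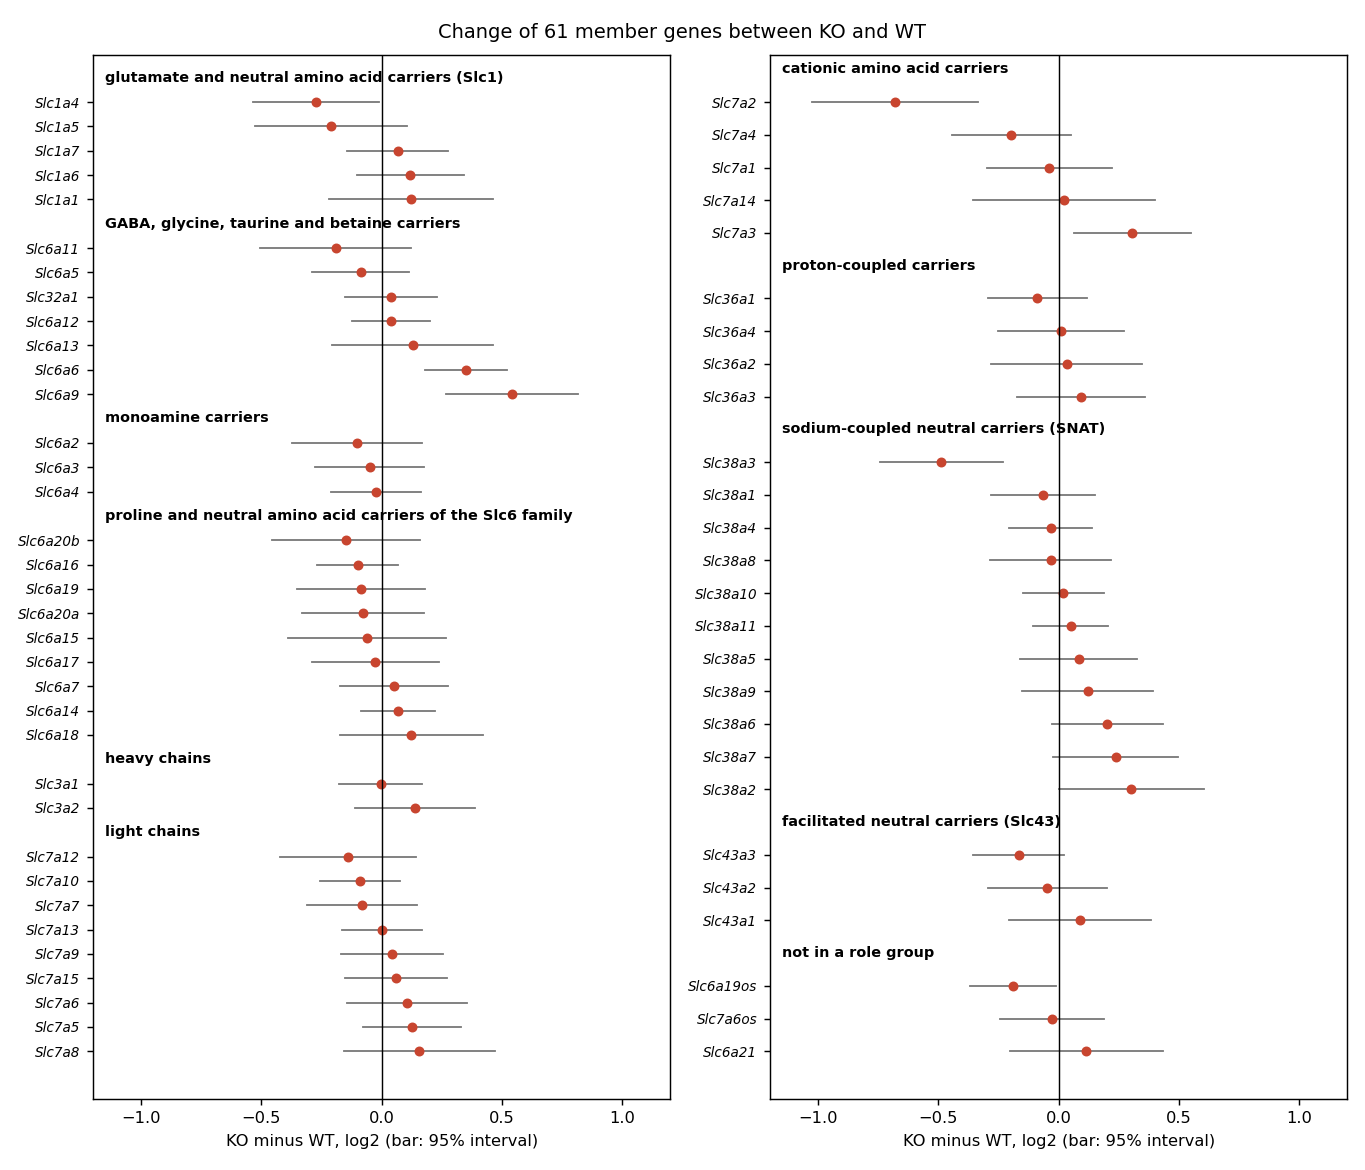
Log2 difference KO minus WT (x axis) of each of the 61 members, grouped by role, with points for the estimate and bars for its 95% interval from the fit over all 9 arrays. Slc7a2 at -0.68 and Slc38a3 at -0.49 lie farthest to the left and Slc6a9 at 0.54 farthest to the right; none passed the test.

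Promoter sequences were searched because 2 stress programmes act on carrier genes: ATF4 binds CCAAT-ATF elements when amino acids run short, and NRF2 binds antioxidant elements. The windows run from 250 bases before to 50 after a gene start, from RefSeq on GRCm38.p6, and 66 windows of 45 of the 61 genes were searched. Slc6a6, Slc7a2, Slc38a3 and Slc7a3 are not among those 45, so their promoters were not searched. The letters TGATGNAA (CCAAT-ATF) were found on either strand in 4 carrier windows of 3 genes, or 6.06% of windows, against 3.97% of the 32851 windows in the table. The letters TGACNNNGC (antioxidant) were found in 11 carrier windows of 9 genes, or 16.7%, against 12.4%. The search letters of the motifs share TGA, and no stretch shown holds both. Whole windows are given for those of the 10 members with the smallest p in KO against WT that hold either motif, and short stretches for the other CCAAT-ATF matches; windows run 5′ to 3′ along the gene, and capitals mark the match. The Slc6a9 windows belong to separate start sites, and a second Slc7a7 window holds the same match as the last line. A match describes the letters and does not show binding.
Slc1a4 chr11:20332664-20332963 (minus strand): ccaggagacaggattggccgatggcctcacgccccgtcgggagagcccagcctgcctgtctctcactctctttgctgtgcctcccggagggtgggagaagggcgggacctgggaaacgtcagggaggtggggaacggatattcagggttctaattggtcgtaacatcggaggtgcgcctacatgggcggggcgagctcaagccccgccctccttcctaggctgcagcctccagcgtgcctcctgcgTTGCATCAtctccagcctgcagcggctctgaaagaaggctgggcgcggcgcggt
Slc38a2 chr15:96699679-96699978 (minus strand): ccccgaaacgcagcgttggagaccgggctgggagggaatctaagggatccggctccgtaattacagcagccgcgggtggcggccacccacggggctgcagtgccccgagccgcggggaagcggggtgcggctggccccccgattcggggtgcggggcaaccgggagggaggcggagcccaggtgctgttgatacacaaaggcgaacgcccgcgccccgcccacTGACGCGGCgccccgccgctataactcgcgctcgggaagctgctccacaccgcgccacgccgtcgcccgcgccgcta
Slc6a9 chr4:117849100-117849399 (plus strand): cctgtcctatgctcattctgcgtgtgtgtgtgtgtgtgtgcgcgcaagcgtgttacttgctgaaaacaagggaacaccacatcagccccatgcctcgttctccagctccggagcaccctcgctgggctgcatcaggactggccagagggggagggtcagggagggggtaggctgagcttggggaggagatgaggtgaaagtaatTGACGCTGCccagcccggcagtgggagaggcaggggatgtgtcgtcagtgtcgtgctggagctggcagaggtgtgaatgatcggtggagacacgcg
Slc6a9 chr4:117855297-117855596 (plus strand): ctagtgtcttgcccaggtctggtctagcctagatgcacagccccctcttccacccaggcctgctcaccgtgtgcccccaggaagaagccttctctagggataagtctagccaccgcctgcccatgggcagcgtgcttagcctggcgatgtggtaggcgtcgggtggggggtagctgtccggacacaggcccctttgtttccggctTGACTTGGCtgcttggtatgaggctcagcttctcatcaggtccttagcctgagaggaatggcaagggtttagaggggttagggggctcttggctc
Slc6a21 chr7:45282834-45282863 (plus strand): agaggtgagaaTTACATCAagtgggcctcc
Slc7a7 chr14:54418067-54418096 (minus strand): ccgcttgggctTGATGAAAggttcactggg
Slc7a7 chr14:54417927-54417956 (minus strand): gacctagaagcTGATGCAAcagcttccccg

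Of the carriers with a CCAAT-ATF match, Slc1a4 lay at -0.27 in KO against WT, Slc7a7 at -0.08 and Slc6a21 at 0.12, so they differed in sign and none passed. Of those with an antioxidant match, Slc6a9 lay at 0.54 and Slc38a2 at 0.30. The remaining 7, Slc6a11, Slc6a13, Slc6a16, Slc7a1, Slc7a6, Slc36a1 and Slc43a1, lay between -0.19 and 0.13.

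The cationic amino acid carriers held the carrier with the largest difference. Slc7a2, an arginine and lysine carrier with splice forms that differ in affinity, lay at 7.04, 7.02 and 7.13 in WT, 7.09, 7.49 and 6.72 in HET, and 6.37, 6.36 and 6.41 in KO. The KO arrays lay together and below every WT and HET array, while the HET arrays spread on both sides of WT. The KO against WT difference was -0.68 (SE 0.155, a 1.60-fold lower level, adjusted p = 0.152 by limma). The fit shared 1 estimate of the spread over the genotypes. When HET arrays were left out altogether the adjusted p was 0.019, with a SE of 0.062. It was 0.035 without HET replicate 2 (SE 0.099) and 0.036 without HET replicate 3 (SE 0.104). Over all the alternatives run, it ranged from 0.019 to 0.517, with the highest value without WT replicate 1, and the difference itself stayed between -0.71 and -0.65.

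The other cationic carriers did not share this difference. Slc7a3, a carrier of neurons, lay at 4.94, 5.10 and 5.09 in WT, 5.15, 4.98 and 5.15 in HET and 5.56, 5.34 and 5.15 in KO. Its KO arrays lay above the WT arrays, but KO replicate 3 equalled 2 HET arrays, and the difference of 0.31 (SE 0.11), or 0.20 without KO replicate 1, did not pass. Slc7a1, the widespread arginine carrier, lay at -0.04, Slc7a4 at -0.20 and Slc7a14 at 0.02, none with an unadjusted p under 0.05. Of the 5 genes, 2 lay above 0 and 3 below.

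**Figure D3:**
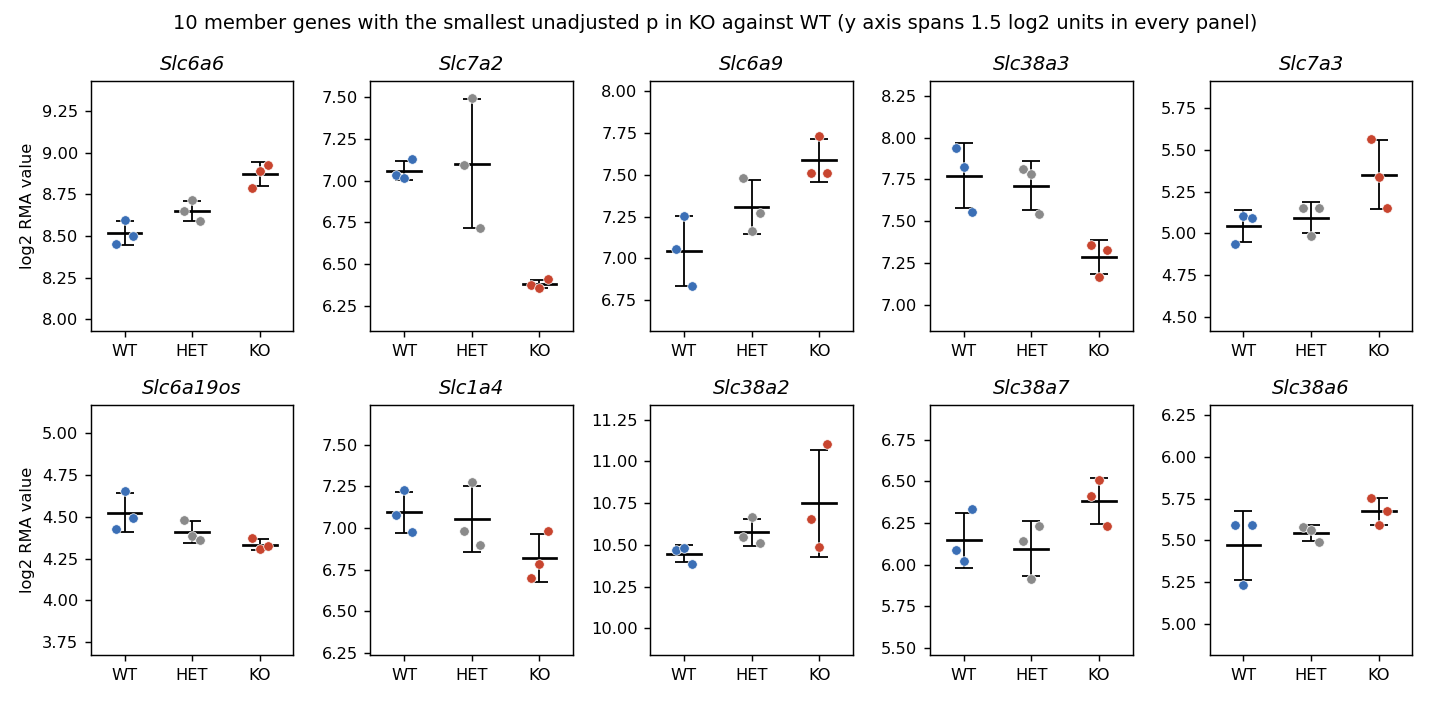
Log2 RMA values (y axis, the same span in every panel) of the 10 members that come first by unadjusted p in KO against WT (9 carriers and the opposite-strand gene Slc6a19os), by genotype; points are arrays, horizontal lines the mean of 3 arrays and bars the SD. The KO arrays of Slc7a2 sit between 6.36 and 6.41 and those of Slc38a3 between 7.17 and 7.36, below all WT and HET arrays.

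Among the transmitter carriers, the taurine and glycine carriers lay higher in KO. Slc6a6, which takes up taurine, lay at 8.45, 8.60 and 8.50 in WT, 8.65, 8.71 and 8.59 in HET, and 8.79, 8.89 and 8.93 in KO. All KO arrays lay above all others, HET arrays lay mostly between, and only HET replicate 3 fell within the WT range. The difference of KO from WT was 0.35 (SE 0.077, a 1.28-fold higher level, adjusted p = 0.136 by limma), with an adjusted p between 0.094 and 0.600 over the alternatives. Slc6a9, which clears glycine from around glia and synapses, lay at 7.05, 7.25 and 6.83 in WT, 7.48, 7.16 and 7.27 in HET, and 7.51, 7.73 and 7.51 in KO. Its KO arrays lay above all others and its HET arrays overlapped WT. The difference was 0.54 (SE 0.12, a 1.46-fold higher level, adjusted p = 0.155 by limma), with an adjusted p between 0.099 and 0.543 over the alternatives.

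The GABA carriers described here had no unadjusted p under 0.05 in KO against WT. Slc6a11, the glial GABA carrier, lay at -0.19 in KO against WT (SE 0.14), Slc6a13, a carrier of the meninges and blood-brain border, at 0.13, and Slc6a12, which also takes betaine, at 0.04. Slc32a1, the vesicular carrier of GABA and glycine, lay at 0.04 and Slc6a5, the neuronal glycine carrier, at -0.09, from values under each array's lower quartile. Of these 7 carriers of GABA, glycine, taurine and betaine, 5 lay above 0 and 2 below. The monoamine carriers Slc6a2 (noradrenaline), Slc6a3 (dopamine) and Slc6a4 (serotonin) lay at -0.10, -0.05 and -0.02.

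The glutamate and neutral carriers of the Slc1 family gave 1 gene with an unadjusted p under 0.05 in KO against WT. Slc1a4, which exchanges alanine, serine and cysteine, lay at 7.08, 7.23 and 6.98 in WT, 6.98, 7.28 and 6.90 in HET and 6.70, 6.79 and 6.98 in KO. KO replicate 3 lay within the WT range, so the groups overlapped, and the difference of -0.27 (SE 0.12) did not pass. Slc1a5, which exchanges glutamine, lay at -0.21, and the glutamate carriers Slc1a1, Slc1a6 and Slc1a7 at 0.12, 0.12 and 0.07. The 9 proline, neutral and orphan carriers of the Slc6 family lay between -0.15 and 0.12, 6 of them below 0, and their smallest p belonged to Slc6a16, at -0.10 (-0.059 without KO replicate 3). Slc6a20a and Slc6a20b, close copies of a proline carrier whose probes may not tell them apart, lay at -0.08 and -0.15. Slc6a21, outside these groups, lay at 0.12.

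The sodium-coupled carriers of the Slc38 family differed among themselves. Slc38a3, which releases and takes up glutamine in glia, lay at 7.94, 7.83 and 7.56 in WT, 7.81, 7.78 and 7.54 in HET and 7.36, 7.17 and 7.33 in KO. KO arrays lay below all WT and HET arrays, which overlapped each other. The difference was -0.49 (SE 0.115, a 1.40-fold lower level, adjusted p = 0.173 by limma), with an adjusted p between 0.080 and 0.734 over the alternatives. Slc38a2, the carrier that cells induce when amino acids run short, lay at 10.47, 10.48 and 10.39 in WT, 10.55, 10.67 and 10.51 in HET, and 10.65, 10.49 and 11.11 in KO. KO replicate 3 stood above the rest, and the difference of 0.30 (SE 0.14) was 0.12 without it. KO replicate 2 lay just above the highest WT array and below all HET arrays.

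Slc38a1, a glutamine carrier of neurons, lay at 10.02, 10.03 and 10.05 in WT, 10.02, 10.28 and 9.91 in HET, and 9.92, 9.93 and 10.06 in KO. All groups overlapped. Its difference of -0.06 had the opposite sign, 0.13, with the mean of its probe sets in place of the brighter one. Slc38a7, a lysosomal glutamine carrier, lay at 0.24 with overlapping groups, as 6.09, 6.02 and 6.33 in WT, 6.14, 5.91 and 6.23 in HET and 6.41, 6.51 and 6.23 in KO. Slc38a6 lay at 0.20, with 5.59, 5.23 and 5.59 in WT, 5.58, 5.56 and 5.49 in HET and 5.76, 5.59 and 5.67 in KO, where KO replicate 2 equalled 2 WT arrays, and the difference was 0.084 without WT replicate 2. Slc38a9, which senses arginine in the lysosome, lay at 0.12. Of the 11 Slc38 genes, 7 lay above 0 and 4 below.

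No heavy or light chain had an unadjusted p under 0.05 in KO against WT. Slc3a2, the partner of most light chains, lay at 8.09, 8.22 and 8.21 in WT, 8.24, 8.60 and 8.33 in HET and 8.17, 8.28 and 8.49 in KO. Its HET arrays lay above its WT arrays, while the KO arrays overlapped both. Slc7a5, the large neutral amino acid exchanger of the blood-brain barrier and of growing cells, lay at 9.11, 9.14 and 8.94 in WT, 9.23, 9.08 and 8.98 in HET and 9.11, 9.27 and 9.20 in KO. These groups overlapped, and the KO against WT difference was 0.13 (95% interval -0.08 to 0.33), or 0.065 without WT replicate 3. Slc7a8, a similar exchanger, lay at 5.36, 5.60 and 5.60 in WT, 5.60, 5.60 and 6.07 in HET and 5.60, 5.87 and 5.56 in KO, and Slc7a7, an exchanger of cationic for neutral amino acids, at 6.03, 6.06 and 6.25, at 6.10, 6.03 and 5.73, and at 6.03 on every KO array. The 9 light chains lay between -0.14 and 0.16 in KO against WT, 6 above 0. Slc3a1, the heavy chain of kidney and gut, lay at 0.00 and its partner Slc7a9 at 0.04.

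Proton-coupled carriers of the Slc36 family lay between -0.09 (Slc36a1, a lysosomal carrier) and 0.09 (Slc36a3). Among the Slc43 carriers, Slc43a3 lay at -0.17 (-0.094 without WT replicate 1), Slc43a2 at -0.05 and Slc43a1 at 0.09. The opposite-strand gene Slc6a19os lay at 4.43, 4.65 and 4.49 in WT, 4.48, 4.38 and 4.36 in HET and 4.37, 4.31 and 4.32 in KO, all but 1 of these values, WT replicate 2, below the lower quartile of its array. Its difference of -0.19 (SE 0.081), or -0.13 without WT replicate 2, did not pass, and Slc6a19, on the other strand, lay at -0.08. Slc7a6os lay at -0.03 and Slc7a6, which it overlaps, at 0.11.

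No carrier passed in HET against WT either, where 1 allele differs. In HET against WT, 0 of 61 passed and 0 of all genes did (0%) by limma, and 1 carrier (1.64%) had an unadjusted p under 0.05, where 4.05% of all genes did, 2.4% higher and 1.66% lower. That carrier lay higher and was Slc1a1, the glutamate and cysteine carrier of neurons, at 6.32, 6.44 and 6.29 in WT, 6.27, 6.86 and 6.95 in HET and 6.56, 6.37 and 6.49 in KO. HET replicate 1 lay below every WT array and the other 2 HET arrays above, so the groups overlapped, and the difference was 0.34 (SE 0.15), 0.55 without HET replicate 1 and 0.22 without HET replicate 3. Groups did not overlap for 5 carriers (Slc1a7, Slc3a2, Slc6a7, Slc6a12 and Slc38a2), or 8.20%, against 6.85% of all genes. The next smallest p-values belonged to Slc6a9 (0.26), Slc3a2 (0.22), Slc6a6 (0.13), Slc7a8 (0.24) and Slc7a7 (-0.16). Several rested on 1 array: without HET replicate 3 Slc7a8 lay at 0.082 and Slc7a7 at -0.049, without HET replicate 2 Slc3a2 at 0.11, and without WT replicate 3 Slc6a9 at 0.15 and Slc7a7 at -0.094. Without HET replicate 1 Slc6a9 lay at 0.17, and without WT replicate 1 Slc7a8 at 0.16. For 57 of 61 members (93.4%) the 95% interval lay between -0.5 and 0.5, against 89.5% of all genes. For all 61 it lay between -1 and 1, against 99.5% of all genes.

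KO against HET gave 0 of 61 members by limma, where 0.206% of all genes passed. At an unadjusted p under 0.05 there were 6 carriers, 4 higher and 2 lower, or 9.84%, against 6.16% of all genes (2.87% higher and 3.3% lower). The HET arrays did not overlap the KO arrays for 5 carriers, Slc6a6, Slc6a9, Slc7a2, Slc38a3 and Slc38a6, or 8.20%, against 6.54% of all genes. Slc7a2 lay at -0.72 (SE 0.155, adjusted p = 0.186), Slc38a3 at -0.43 (adjusted p = 0.399), Slc38a7 at 0.29, Slc6a9 at 0.28, Slc7a3 at 0.26 (0.15 without KO replicate 1) and Slc6a6 at 0.22. Without HET replicate 3, the lowest HET array, Slc7a2 lay at -0.91 and passed (adjusted p = 0.031 by limma). This comparison and KO against WT share the KO arrays, so the agreement of their values is not independent.

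Genes of the pathways around the carriers were counted from lists by role. Of 9 measured genes of glutamate and glutamine metabolism, 0 passed in KO against WT; the smallest p-values belonged to Slc1a2, the main glial glutamate carrier and also 1 of the astrocyte markers below (-0.62, SE 0.12, adjusted p = 0.077), Glul, which makes glutamine (-0.62, SE 0.14), and Glud1, glutamate dehydrogenase (0.34, SE 0.10). Of 4 genes of GABA synthesis and breakdown 0 passed, with Gad1 at 0.24 and Gad2 at 0.08, both GABA-making enzymes. Of 10 genes of glycine and serine metabolism 0 passed, with Gldc, the glycine decarboxylase, at -0.33, and the serine-making enzymes Psph and Phgdh at -0.25 and -0.18. Of 9 monoamine and acetylcholine genes 0 passed, with the vesicular carriers Slc18a3 and Slc18a1 at 0.14 and -0.10 and the serotonin-making Tph2 at 0.08.

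The amino acid response list, genes that ATF4 induces in shortage, had 1 of 14 that fell and 0 that rose in KO against WT, with a median of 0.00. The 1 was Slc7a11, the cystine carrier, which fell (-0.95, SE 0.16, adjusted p = 0.038 by limma); Aldh1l2, a mitochondrial folate enzyme, lay at 0.39 and Cebpg at 0.12. Of 17 genes of amino acid sensing by mTORC1, 0 passed, 11 lay above 0 and the median was 0.08, with Castor2 at 0.24, Mtor at 0.16 and Tsc1 at 0.10. In HET against WT and in KO against HET, 0 genes of these 6 lists passed.

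Markers of other cell types were set beside the carriers, because glia, neurons and vessels express many of them. The 9 astrocyte markers, all measured, had mean levels of 7.56 to 7.75 (WT), 7.44 to 7.83 (HET) and 7.04 to 7.10 (KO). In KO against WT, 3 of 9 fell, Apoe (-0.86), Clu (-1.05) and Aqp4 (-1.02). By sign, 7 lay below 0 and 2 above, with Aldh1l1 at 0.21. Gfap lay at -0.31 in KO against WT and at -0.36 in HET against WT. The mean level of this list lay lower in KO than in WT and HET, as did Slc7a2 and Slc38a3. The 10 markers of GABAergic neurons and their progenitors had mean levels of 8.69 to 8.83 (WT), 8.86 to 8.96 (HET) and 9.12 to 9.30 (KO), and 2 of 10 rose, Npy (1.27) and Sst (1.53), with Lhx6 at 0.72. The KO mean lay above those of HET and WT for this list, as for Slc6a6 and Slc6a9. In KO against WT, 9 of the list's genes lay above 0 and 1 below, from -0.02 to 1.53. Their median was 0.25, and the size was over 0.5 for 30% of them. The HET mean of the list also lay above WT, but 5 of its genes lay above 0 and 5 below in HET against WT, with a median of 0.00, Sst at 0.90 and Npy at 0.45. The part of these markers in the carriers' values was not tested.

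**Figure D4:**
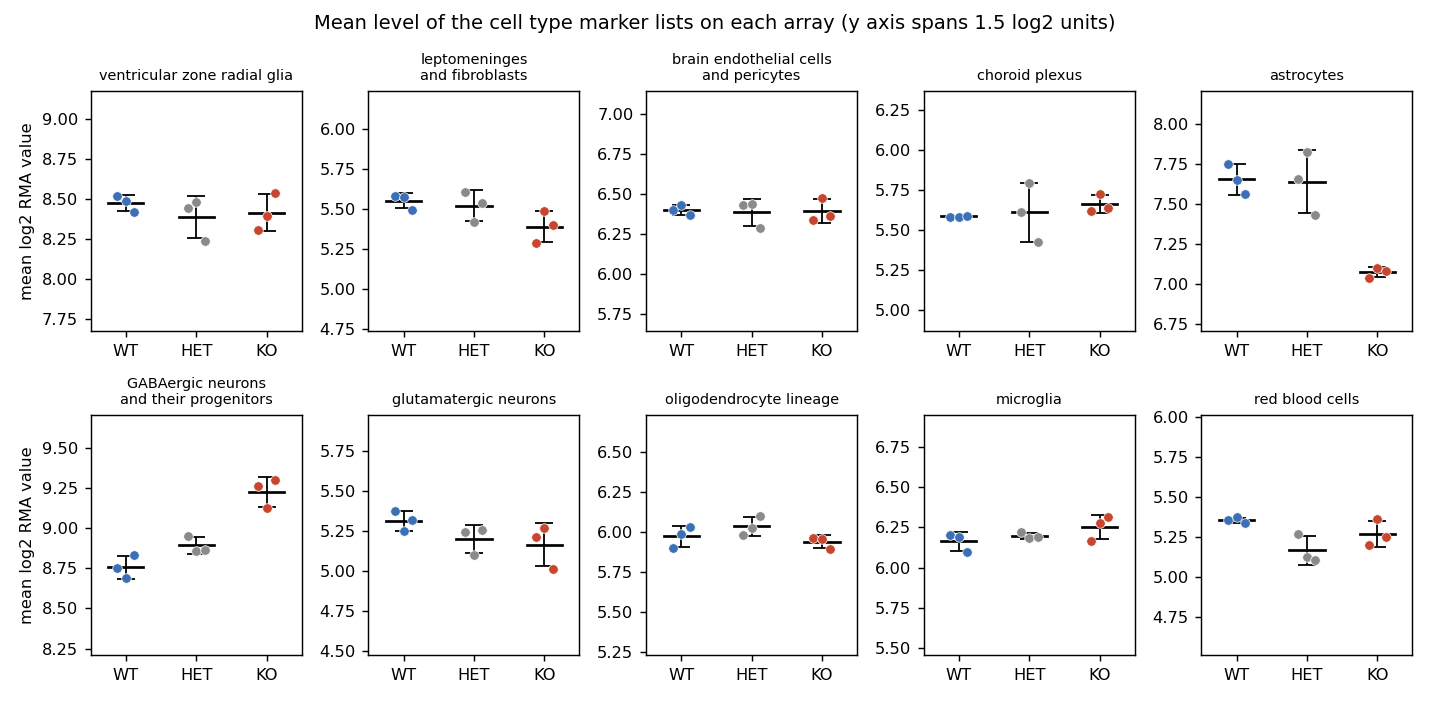
Mean log2 RMA value (y axis, the same span in every panel) of each cell type marker list on each array, by genotype; points are arrays, horizontal lines the mean of 3 arrays and bars the SD. The astrocyte list sits between 7.04 and 7.10 on the KO arrays, below all others, and the GABAergic list between 9.12 and 9.30, above all others.

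The mean levels of the meninges and choroid plexus lists also did not overlap between WT and KO. By gene, the meninges list held 3 above 0 and 8 below in KO against WT (median -0.09). Its differences ran from -1.37, for Ogn, to 0.27. The choroid plexus list held 4 above 0 and 5 below (median -0.01), from -0.39 to 0.89, the highest being F5. How far these list means rest on Ogn and F5 was not tested. The leptomeninges and fibroblast list (11 of 12 measured) ran from 5.49 to 5.58 in WT, 5.42 to 5.61 in HET and 5.29 to 5.48 in KO, with the proteoglycan gene Ogn fallen (-1.37) and Pdgfra at 0.27 and Lum at -0.18. The endothelial and pericyte list (12 of 12) ran from 6.37 to 6.43 in WT, 6.29 to 6.44 in HET and 6.34 to 6.48 in KO, with 0 called and Slco1a4 at -0.27, Pdgfrb at -0.29 and Pecam1 at 0.28. The choroid plexus list (9 of 9) ran from 5.58 to 5.59 in WT, 5.43 to 5.79 in HET and 5.62 to 5.73 in KO; its clotting factor gene F5 rose (0.89), with Calml4 at 0.19 and Otx2 at 0.26. None passed among glutamatergic neurons (Tbr1 -0.66, Neurod6 0.28, Slc17a6 -0.45), the oligodendrocyte lineage (Cnp -0.43, Pdgfra 0.27, Olig1 0.16), microglia (Cd68 0.26, Laptm5 0.18, Tyrobp 0.14) or red blood cells (Alas2 -0.19, Hbb-y -0.09, Epb42 -0.04), of which 7, 7, 7 and 4 genes were measured. Among radial glia markers Prom1 lay at -0.57, Pax6 at -0.41 and Sox2 at 0.22.

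Members had their widest median spread among KO arrays. The median SD of a member was 0.055 (WT), 0.121 (HET) and 0.147 (KO), against 0.077, 0.117 and 0.130 for all genes. KO replicate 2 held the highest of the 9 values for 19 of 61 members (31.1%), against 20.5% of all genes, and KO replicate 3 the lowest for 11 (18.0%), against 14.8%. KO replicate 2 also received the lowest array weight, 0.364. Without it and HET replicate 1 together, the arrays of lowest weight, again 0 carriers passed in each comparison.

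**Figure D5:**
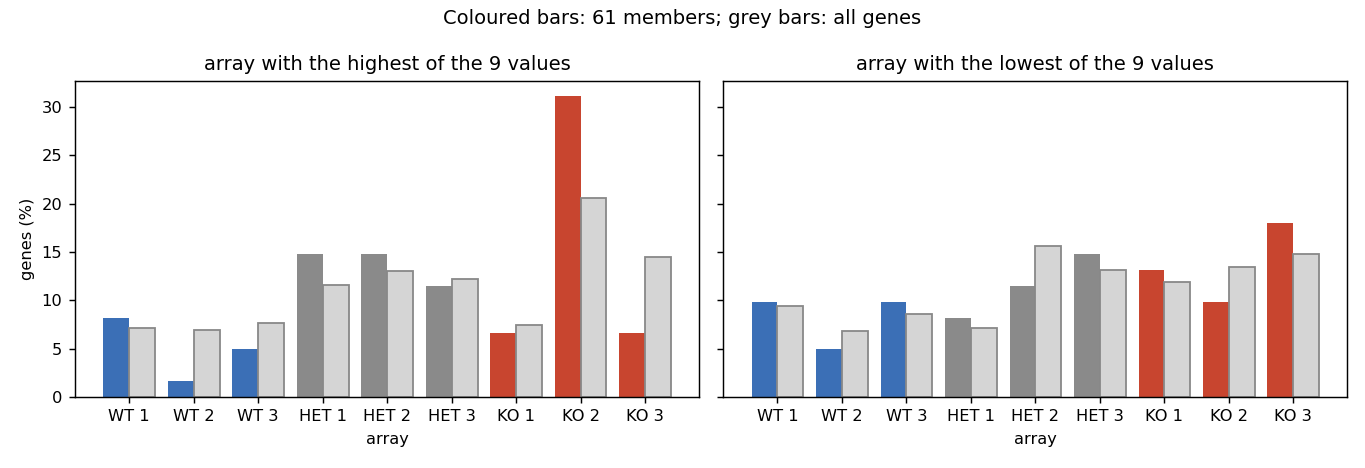
Share of genes (y axis, percent) for which each array (x axis) held the highest (left) or lowest (right) of the 9 values; coloured bars are the 61 members and grey bars all genes, and arrays with tied values all count. KO replicate 2 held the highest value for 31.1% of members and 20.5% of all genes.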

How the data were processed

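RNA was amplified before hybridisation, per the labels' protocols. The authors deposited log2 values per probe set. RMA, affy and limma are named in the submitters' processing notes, with no version, and the sources used here do not name the probe set definition. RMA corrects background, normalizes arrays and summarises probes, and detection calls were not used. Of 28940 probe sets, 21789 had 1 gene symbol in the array's annotation; for the 999 genes with several, the probe set of highest mean was taken. Tests used R 4.3.3 and limma 3.58.1 (lmFit and eBayes, two-sided), with all 9 arrays in 1 fit, a mean per genotype and Benjamini-Hochberg adjustment over 19938 genes; the script was tested on simulated data. Intervals are 95% intervals from that fit, and the number of arrays limits the precision. No p adjusted over the carriers alone is given. Named carriers were the 10 of smallest unadjusted p in KO against WT, the 6 of smallest p in each other comparison, the 3 of highest mean (Slc38a2, Slc38a1 and Slc7a5) and the first of each role group; of each list, up to 3 genes of smallest p were named. The members, lists and rules were chosen with earlier results of these data known. Alternatives are given in the closing section.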

Additional observations from a re-analysis of the deposited data

How the results depend on the processing

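Each count was recomputed under 21 alternatives. The count of carriers called was 0 in HET against WT under all of them. In KO against WT it was 1 with only the arrays of the 2 genotypes and ranged from 0 to 1 when each array was left out in turn, and in KO against HET it ranged from 0 to 1 when each was left out; the 1 was Slc7a2 each time, without HET replicate 2 or 3 in the first and without HET replicate 3 in the second. Over all genes, KO against WT gave 90 calls, and 33 with only the 2 genotypes, 151 with array weights, 50 without HET replicate 1 and KO replicate 2 together, and 23 to 77 with 1 array left out. KO against HET gave 41, and 8 with only the 2 genotypes, 23 with every probe set tested, 21 with median centring, 24 with the Xist level as a covariate for the sex of the pups, and 12 to 75 with 1 array left out. HET against WT gave 0 throughout. With the replicate number as a block, KO against WT gave 72 calls and KO against HET 19, and 0 carriers in each comparison. Deviations from the genotype means of arrays of the same number had correlations of -0.336 to 0.0555 over genes. With 3 arrays per genotype such correlations cannot show whether the numbers pair arrays, and the labels do not say. Of 28 differences of named carriers, 26 kept their sign under every alternative run. Slc38a1 in KO against WT was 0.13 with the mean of its probe sets, and Slc6a2 ranged from -0.20 to 0.0088 with 1 array left out, the positive value being without KO replicate 1; the cause was not tested. Values of 6 carriers below every array's lower quartile limit what a difference there could show.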

Other observations

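Many carriers held exactly the same value on several arrays. Of the 61 members, 37 (60.7%) had at least 2 arrays with an identical value to 6 decimals, and 25 (41.0%) had at least 3, against 62.9% and 37.7% of all genes. Slc7a10, which carries serine and glycine, Slc7a13 and the proton-coupled carrier Slc36a2 each had 6 of 9 arrays at 1 value. For Slc36a2 that value was 5.37, and KO replicate 1 and KO replicate 2 stood apart from it at 5.07 and 5.77.

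Slc38a1 and Slc38a9 were the 2 carriers with a second probe set of their own symbol. The dimmer probe set of Slc38a1 lay at 7.77, 7.49 and 7.78 in WT, 7.56, 8.22 and 7.80 in HET and 8.01, 7.93 and 8.09 in KO. Its KO mean was 0.33 above its WT mean and the KO arrays lay above all WT arrays, whereas the brighter probe set gave -0.06. For Slc38a9 the probe sets gave 0.12 and 0.01. Which transcripts each probe set covers was not tested.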
